A study of Drosophila melanogaster with 6 samples.

Results

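Insulin-like peptides and the genes that carry their signal were followed through the 6 arrays of the study. The list held 10 genes: the insulin-like peptides Ilp2, Ilp3, Ilp5, Ilp6, Ilp7 and Ilp8, the binding protein ImpL2, the receptor InR, the transcription factor foxo and the translational repressor Thor. A gene entered with every probe set (a group of short probes against the same transcript, summarised as 1 value) whose array annotation names that gene alone. By this rule 7 of the 10 genes were measured, each by 1 probe set, among 11982 genes of the array with a probe set of their own. Ilp3, Ilp6 and Thor are only named here. The flies came from the wild type laboratory strains Canton-S, founded from flies of North America, and D18, founded from flies of the Moscow region. Each strain has 3 arrays, each hybridized with total RNA of a pool of whole adults given in the labels as 3 days old and kept at 25 °C without further treatment. In whole flies, fewer cells of a type and less RNA per cell cannot be told apart.

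In Drosophila, insulin-like peptides are hormones that couple feeding to growth, metabolism, egg production and lifespan. Ilp2, Ilp3 and Ilp5 are released mainly by a small group of neurosecretory cells of the brain, Ilp6 mainly by the fat body, and Ilp7 by a few neurons of the ventral nerve cord. Ilp8 is a relaxin-like peptide that delays metamorphosis after tissue damage and is made in adult females by follicle cells of mature eggs. The peptides act through the receptor tyrosine kinase InR and the kinase Akt, which keeps the transcription factor foxo out of the nucleus, while ImpL2 binds the peptides outside the cell and counteracts them. Active foxo switches on targets such as InR itself and Thor, an inhibitor of the translation factor eIF4E.

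All values are log2 RMA signals, in which a step of 1 is a 2-fold difference within the same probe set. They say nothing about which of several genes was the more abundant, because probe sets differ in how brightly they report a transcript. The values of the whole array ran from 0.98 to 14.07, and the lower quartile of an array lay between 2.94 and 3.07, a range in which differences are compressed. Canton-S replicate 3 and D18 replicate 2 stood apart from the other 4 arrays. On this pair the median of 17 testis genes was 9.88 and 10.32 and that of 12 male accessory gland genes 11.63 and 11.30, against 2.59 to 2.81 and 2.25 to 2.61 on the other 4. The median of 16 yolk and eggshell genes was 4.03 and 3.61 on the pair, against 11.30 to 12.91 on the other 4. The methods describe flies of both sexes for every extraction. Each strain holds 1 array of the pair, so this difference widens the spread within both strains and leaves the pooled strain difference balanced. In the text below the 2 arrays are called the testis-type pair and the others the ovary-type arrays.

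Ilp2 and Ilp5, the brain peptides that were measured, stood higher in all 3 Canton-S arrays than in any D18 array. Ilp2 (CG8167, chromosome 3L of the Release 6 assembly, 9799698 to 9800440) had log2 values of 6.04, 6.18 and 6.13 in Canton-S replicates 1, 2 and 3, against 5.73, 5.67 and 4.96 in D18 replicates 1, 2 and 3. The Canton-S arrays lay close together, and the D18 arrays were spread over a wider range with replicate 3 lowest. Canton-S averaged 6.12 ± 0.07 and D18 averaged 5.45 ± 0.43 (SD, n = 3 each), a difference of 0.66 ± 0.27 (SE from limma) or 1.58-fold. Ilp5 (CG33273, chromosome 3L, 9823349 to 9823897), which is also made by follicle cells of the ovary, had 5.52, 5.64 and 5.55 in Canton-S, against 5.32, 3.86 and 4.43 in D18. Its Canton-S arrays again differed by little, while D18 replicate 2 of the testis-type pair was the lowest and D18 replicate 1 came near to Canton-S. Canton-S averaged 5.57 ± 0.07 and D18 averaged 4.54 ± 0.74 (SD, n = 3 each), a difference of 1.03 ± 0.40 (SE from limma) or 2.05-fold.

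Neither strain difference held after adjustment over all probe sets. In limma, with strain as the only factor, the unadjusted p was 0.0532 for Ilp2 and 0.0444 for Ilp5, with an adjusted p = 0.9999 for both over 18769 probe sets. The 95% intervals of the difference ran from -0.01 to 1.34 for Ilp2 and from 0.04 to 2.03 for Ilp5. Among all probe sets, 9.11% had a wider strain difference than Ilp2 and 3.81% a wider one than Ilp5. Complete separation of the strains with Canton-S higher was seen for these 2 of the 7 genes and for 5.62% of all probe sets, and complete separation with D18 higher for none of the 7 and for 2.39% of all probe sets. For both peptides the exact permutation p (two-sided) was 0.1, and 3 arrays a strain allow none smaller. Within the ovary-type arrays Canton-S was higher by 0.76 for Ilp2 and 0.70 for Ilp5 (2 arrays against 2), and within the testis-type pair by 0.46 and 1.69 (1 against 1). Without D18 replicate 1, the D18 array nearest to Canton-S, the difference of Ilp5 was 1.42 with an unadjusted p of 0.00479 from limma, which passed the thresholds of the methods. Other settings weakened both differences. The unadjusted p from limma was 0.108 for Ilp2 and 0.183 for Ilp5 with quantile normalization, and 0.246 and 0.184 with a common median. With an intensity trend in the variance it was 0.134 and 0.0728. Marker medians of several tissues differed between the strains too. Toward Canton-S, the median strain difference was 0.25 over all arrays and 0.60 within the ovary-type arrays for neurons, 0.13 and 0.23 for neurosecretory peptides, 1.19 and 1.48 for gut, and 0.13 and 0.70 for muscle. Toward D18, it was -0.59 and -1.02 for yolk and eggshell and -0.31 and -0.54 for ovary. Their part in the values of Ilp2 and Ilp5 was not tested.

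**Figure D1:**
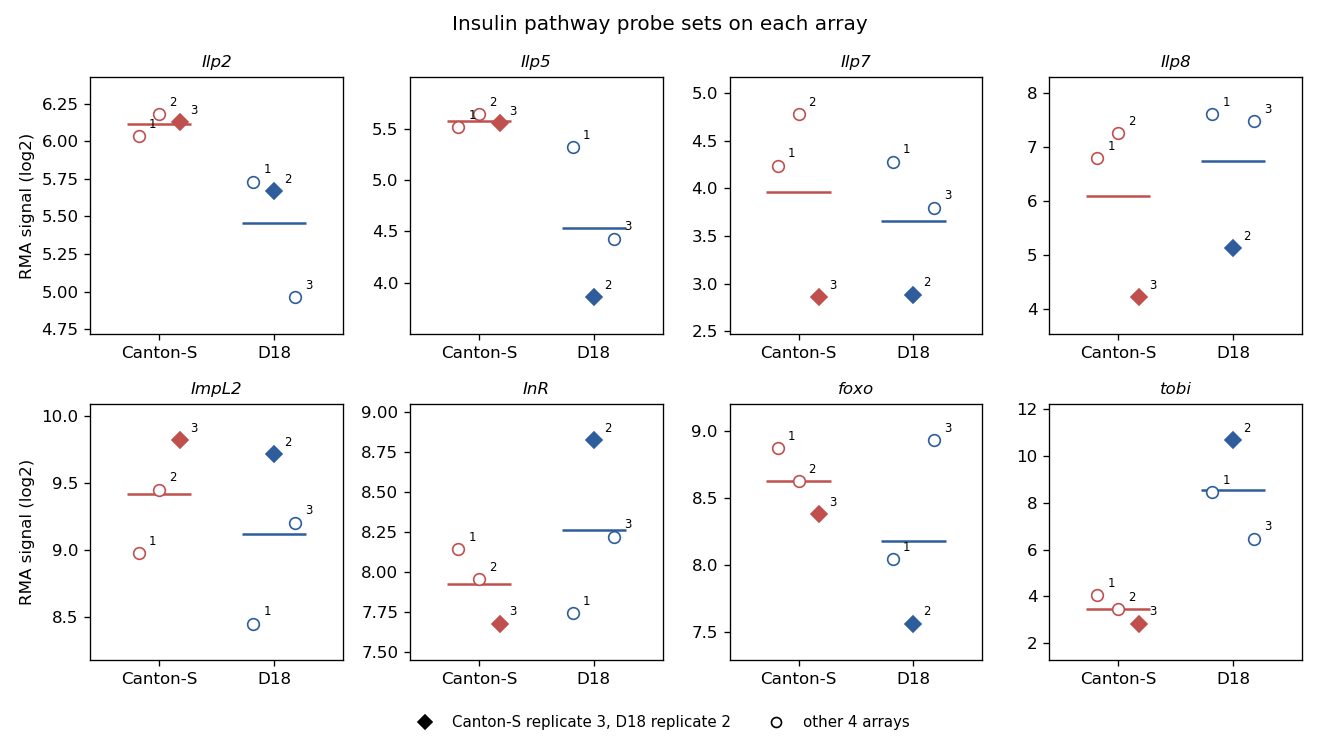
Log2 RMA signal (vertical axes, scaled separately) of the 7 measured genes and of tobi on each array, with Canton-S in red and D18 in blue, the replicate number beside each point and the strain mean as a line. Filled diamonds are the testis-type pair and open circles the ovary-type arrays. Ilp2, Ilp5 and tobi separate the strains, and Ilp7 and Ilp8 are lowest on the pair.

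Ilp7 and Ilp8 were lower on both arrays of the testis-type pair than on any ovary-type array. Ilp8 (CG14059, chromosome 3L, 17029812 to 17032080) had log2 values of 4.22 (Canton-S replicate 3) and 5.13 (D18 replicate 2) on the pair, against 6.80 and 7.26 on Canton-S replicates 1 and 2 and 7.62 and 7.48 on D18 replicates 1 and 3. Both arrays of the pair lay below every ovary-type array, with a difference of the means of -2.62 or 6.13-fold. The same held inside each strain, with a difference of -2.81 in Canton-S and -2.43 in D18. Ilp7 (CG13317, chromosome X, 3667621 to 3668845), whose neurons also reach the female reproductive tract, had 2.86 on the Canton-S array of the pair and 2.88 on its D18 array. On the ovary-type arrays it had 4.24 and 4.78 in Canton-S replicates 1 and 2 and 4.28 and 3.80 in D18 replicates 1 and 3. The pair was lower by 1.41 on the log2 scale (2.65-fold), and since its values lie under the lower quartile of the array this fold depends on the lower bound of the signal.

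Between the strains Ilp8 differed by -0.65 ± 1.07 and Ilp7 by 0.31 ± 0.62 (Canton-S minus D18, SE from limma), which is less than the spread within each strain. The 95% intervals ran from -3.32 to 2.02 for Ilp8 and from -1.25 to 1.86 for Ilp7, so that neither equality nor a strain difference of several fold can be read from them. With the pair as a block the difference of Ilp8 toward D18 had an unadjusted p of 0.0135 and an adjusted p = 0.267 from limma. Ilp8 was higher in D18 within both kinds of array, with differences of -0.52 on the ovary-type arrays and -0.90 on the pair, while Ilp7 differed by 0.47 and -0.03. Yolk and eggshell genes had a median strain difference of -0.59 over all arrays and -1.02 within the ovary-type arrays, toward D18, and ovary genes had -0.31 and -0.54. Their part in the values of Ilp8 was not tested. The sign of Ilp8 turned without Canton-S replicate 3 (0.29), and that of Ilp7 without Canton-S replicate 2 (-0.11) or D18 replicate 2 (-0.08).

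ImpL2 was the gene that stood higher on the testis-type pair, by less than 2-fold. ImpL2 (CG15009, chromosome 3L, 4224006 to 4236147), an immunoglobulin-domain protein that binds insulin-like peptides in the haemolymph, had 9.82 on the Canton-S array of the pair and 9.71 on its D18 array. The ovary-type arrays had 8.98 and 9.45 in Canton-S and 8.45 and 9.20 in D18, all below both arrays of the pair. The difference of the means was 0.75 (1.68-fold), and it was 0.61 inside Canton-S and 0.88 inside D18. Such a difference was common, as 40.3% of all probe sets had a wider one between the kinds of array. The strain difference of 0.29 ± 0.41 (SE from limma, interval -0.73 to 1.31) was smaller than the spread between the arrays of a strain.

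InR and foxo overlapped between the strains and between the kinds of array. InR (CG18402, chromosome 3R, 21570248 to 21619321) had log2 values of 8.14, 7.96 and 7.68 in Canton-S, against 7.74, 8.83 and 8.22 in D18. The highest and the lowest value of this gene both came from the testis-type pair, so that the strain difference was -1.15 inside the pair and 0.066 inside the ovary-type arrays. The interaction of strain and kind of array in limma had an unadjusted p of 0.0317 and an adjusted p = 0.881 for InR, and 5.37% of all probe sets had an unadjusted p under 0.05. The pair holds 1 array of each strain, so that its spread in this fit was taken from the other arrays. For the other 6 genes the unadjusted p was between 0.145 and 0.643. The pooled strain difference of InR was -0.34 ± 0.33 (SE from limma, interval -1.17 to 0.50), and -0.058 without D18 replicate 2.

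For foxo (CG3143, chromosome 3R, 14056945 to 14087978) the values were 8.87, 8.62 and 8.38 in Canton-S, against 8.04, 7.56 and 8.93 in D18. The highest and the lowest of the 6 were both D18 arrays. The strain difference was 0.45 ± 0.40 (SE from limma, interval -0.55 to 1.44), and it was 0.14 without D18 replicate 2 and 0.82 without D18 replicate 3 (unadjusted p of 0.0478). The testis-type pair averaged 7.97 and the ovary-type arrays 8.62, with overlap between them. On D18 replicate 2 InR was at its highest and foxo at its lowest of the 6 arrays. This is a single array, and a relation between the 2 genes was not tested.

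Over the 7 genes, none passed the thresholds of the methods (over 2-fold at an unadjusted p under 0.01), which 239 of 18769 probe sets or 1.27% passed, and none had an adjusted p under 0.05, which 7 probe sets or 0.0373% had (limma). With the replicate number as a block, which pairs the strains by repeat, 92 probe sets passed the thresholds and none had an adjusted p under 0.05 (373 had an unadjusted p under 0.05), with none of the 7 among the 92. Ilp5 alone of the 7 had an unadjusted p under 0.05, as had 4.2% of all probe sets, and this became 0.085 with the replicate block. With the pair as a block, 3 of the 7 had an unadjusted p under 0.05, as had 11.9% of all probe sets, and none an adjusted p under 0.05, with Ilp2 at an unadjusted p of 0.0301 and an adjusted p = 0.353 and Ilp5 at 0.0169 and an adjusted p = 0.295. The plot of strain differences shows the wide intervals that the 2 kinds of array give to Ilp8 and Ilp7.

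**Figure D2:**
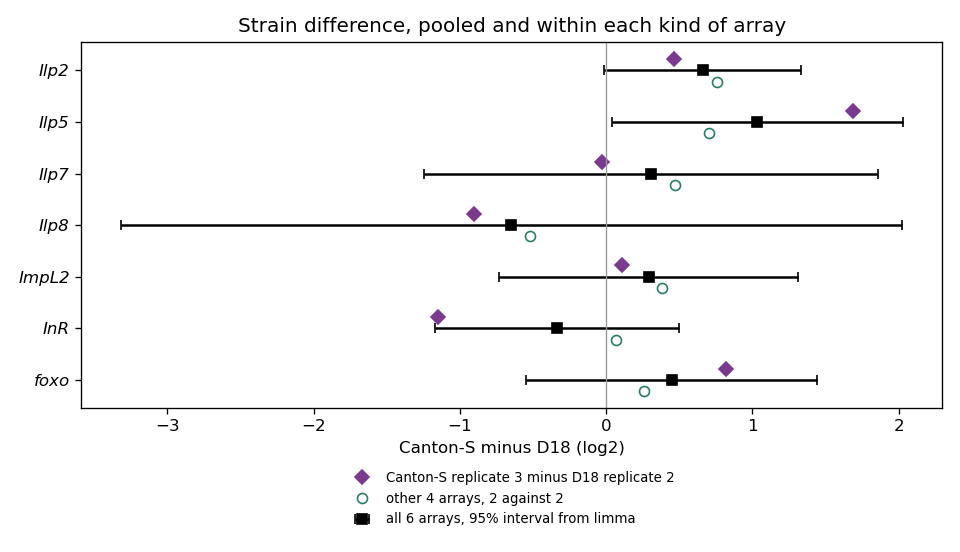
Difference between the strains, Canton-S minus D18 on the log2 scale (horizontal axis), for the 7 genes. Squares with bars are the difference over all 6 arrays with its 95% interval from limma, filled diamonds the difference inside the testis-type pair and open circles that inside the ovary-type arrays. The interval of Ilp5 alone lies above 0, and the points for InR fall on either side of 0.

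By kind of array, a probe set was counted as apart where both arrays of the pair lay on the same side of all other 4 and the means differed by more than 1 on the log2 scale. The split was known from these data, so this is a description without a test. Ilp7 and Ilp8 were apart with the pair lower, as were 16.8% of all probe sets, and none of the 7 was apart with the pair higher, as were 13.2% of all probe sets. The difference of all probe sets had a median of -0.33, and relative to it the pair differed by -2.29 for Ilp8, -1.08 for Ilp7, 1.08 for ImpL2, 0.57 for InR, 0.50 for Ilp2, -0.19 for Ilp5 and -0.32 for foxo. For Ilp8, 11.4% of all probe sets had a wider difference between the kinds of array. With every array centred on the same median, the median of all probe sets moved to -0.80, foxo joined Ilp7 and Ilp8 as apart with the pair lower, as were then 32.7% of all probe sets, and 75.2% of the probe sets apart were lower on the pair, against 56.1% in the deposited values. Ovary genes were lower on the pair, with medians of 3.46 and 3.24 for 14 genes against 9.11 to 10.04 on the other 4. Neuron genes were higher on the pair, with 7.72 and 8.30 against 5.72 to 6.88 on the other 4. For 12 fat body genes the medians were 8.43 and 8.25 on the pair and 8.48 to 9.41 on the other 4. What share these tissues have in the values of Ilp7, Ilp8 and ImpL2 was not tested.

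Of 57 measured genes of the wider pathway, tobi alone passed the thresholds of the methods, and it was 33.9-fold higher in D18. The gene tobi (CG11909, chromosome 3R, 25344761 to 25346921) is named as a target of brain insulin: it encodes an α-glucosidase whose transcript depends on the insulin-producing cells of the brain and on the cells that make adipokinetic hormone. Its log2 values were 4.05, 3.44 and 2.84 in Canton-S replicates 1, 2 and 3, against 8.44, 10.66 and 6.47 in D18 replicates 1, 2 and 3. All D18 arrays lay more than 2 above every Canton-S array, and Canton-S was close to the lower quartile of the array, so the size of the fold depends on the lower bound of the signal. The difference was -5.08 ± 1.09 (Canton-S minus D18, SE from limma, 95% interval -7.79 to -2.37), with an unadjusted p of 0.00416 and an adjusted p = 0.554, and 5 of 18769 probe sets had a wider one. Inside the ovary-type arrays it was -3.71 and inside the testis-type pair -7.83. With the pair as a block the adjusted p was 0.111 from limma, and with the replicate number as a further block 0.0300. That last fit has nearly as many terms as there are arrays, so little is left to estimate the spread of each probe set. Its SE for tobi was 0.31, against 1.09 with strain alone, and its p-values are weakly based. The unadjusted p was between 0.0117 and 0.0155 without any 1 of Canton-S replicates 1, 2 and 3 or D18 replicate 1, so tobi then missed the thresholds, at differences of -5.38 to -4.78.

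In the other groups of the pathway no gene passed the thresholds. From the receptor to Akt 8 genes were measured, 17 of the branch of the kinase Tor, and 8 in the list of foxo targets and partners. That list also holds tobi, whose control by foxo was not tested. Of the signals to and from the insulin-producing cells 21 were measured, and 3 of other ligands and receptors. The median strain difference of the 57 genes was -0.02, against -0.05 for all probe sets. The strains were completely separated in 8 of the 57, 5 with Canton-S higher and 3 with D18 higher, as they were in 8.01% of all probe sets, and the following were picked after their values were seen. Canton-S was higher for B4 (Susi, an inhibitor of the kinase that makes phosphatidylinositol triphosphate), Sesn (sestrin, which restrains Tor), Gbp2 (a growth-blocking peptide), NLaz (a lipocalin that counteracts insulin signalling) and Lkr (the leucokinin receptor, present on the insulin-producing cells). Of these Lkr differed most, by 0.78 ± 0.23 (SE from limma, adjusted p = 0.822), and NLaz by 0.77 ± 0.30 (adjusted p = 0.9999). D18 was higher for tobi, for Pdk1, the kinase that phosphorylates Akt, at -0.68 ± 0.26 (adjusted p = 0.9999), and for path, a transporter of amino acids that enhances growth through Tor.

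Path was 3.58-fold higher in D18, the widest strain difference of the 57 after tobi. It had 7.72, 8.78 and 7.97 in Canton-S, against 9.72, 9.33 and 10.94 in D18, with a gap between the strains and D18 replicate 3 highest. The difference was -1.84 ± 0.52 (SE from limma) with an unadjusted p of 0.0142 and an adjusted p = 0.795. With the pair as a block the unadjusted p was 0.0052 and path passed the thresholds, at an adjusted p = 0.186. CCHa2, a nutrient-dependent peptide of fat body and gut that promotes release of insulin-like peptides, had 7.96, 7.22 and 7.94 in Canton-S, against 6.78, 7.23 and 5.90 in D18. Canton-S replicate 2 fell just under D18 replicate 2, so the strains overlapped. The difference was 1.07 ± 0.42 (SE from limma, unadjusted p of 0.0479, adjusted p = 0.9999). The receptors Lgr3, through which Ilp8 acts, and Lgr4 were dim on every array, at 2.63 to 3.14 and 2.97 to 3.47, and their strain differences were -0.13 and -0.20.

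By kind of array the Tor branch leaned to the ovary-type arrays. Of its 17 genes 9 were apart with the pair lower and none with the pair higher (Tsc1, mTor, raptor, rictor, Lst8, Sin1, Nprl2, Nprl3 and slif), against 16.8% and 13.2% of all probe sets. These hold the kinase itself, partners of both of its complexes, the repressor Tsc1, the GATOR1 subunits Nprl2 and Nprl3, which restrain Tor when amino acids are short, and the amino acid transporter slif. The widest of them were slif with means of 7.42 on the pair and 9.53 on the other 4, Lst8 with 6.32 and 8.31, Sin1 with 5.17 and 6.86, and rictor with 6.28 and 7.87. The effector kinase S6k, in contrast, differed by 0.05. With quantile normalization 7 of the 17 were apart with the pair lower, as were 18.7% of all probe sets, and with a common median 12, as were 32.7%. From the receptor to Akt, Dok (means of 6.48 on the pair and 8.96 on the other 4) and wdb, a subunit of the phosphatase that acts on Akt (6.92 and 8.64), were apart with the pair lower. Among foxo targets and partners p53 (7.04 on the pair and 8.27 on the other 4) and Sirt1 (8.11 and 9.20) were lower on the pair. The gene 14-3-3zeta, whose protein holds phosphorylated foxo in the cytoplasm, was 3.14-fold higher on the pair. Its relative 14-3-3epsilon went the other way, with means of 11.21 on the pair and 11.81 on the other 4.

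Among the signals to and from the insulin-producing cells, 15 of 21 genes had a higher mean on the pair than on the other 4 arrays, as had 5774 of all 18769 probe sets. Of the 21, 2 were apart with the pair higher (9.5%) and 1 with the pair lower (4.8%). Both shares were below those of all probe sets, 13.2% and 16.8%. The median difference of the 21 genes was 0.29, and it was -0.18 with a common median. There 1 was apart with the pair higher and 1 with the pair lower, against 10.8% and 32.7% of all probe sets. The neuropeptide sNPF (7.27 on the pair and 5.66 on the other 4) and the serotonin receptor 5-HT1A (5.81 and 4.53) were higher on the pair, and dome, the receptor through which upd2 of the fat body acts, was lower (7.15 and 8.56). Adipokinetic hormone, encoded by Akh, the counterpart of insulin in flies, had 7.48, 5.93 and 6.39 in Canton-S, against 6.36, 7.18 and 6.54 in D18, and overlapped between strains and between kinds of array. By the medians given above, ovary genes were lower and neuron genes higher on the pair, and their part in these groups was not tested.

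**Figure D3:**
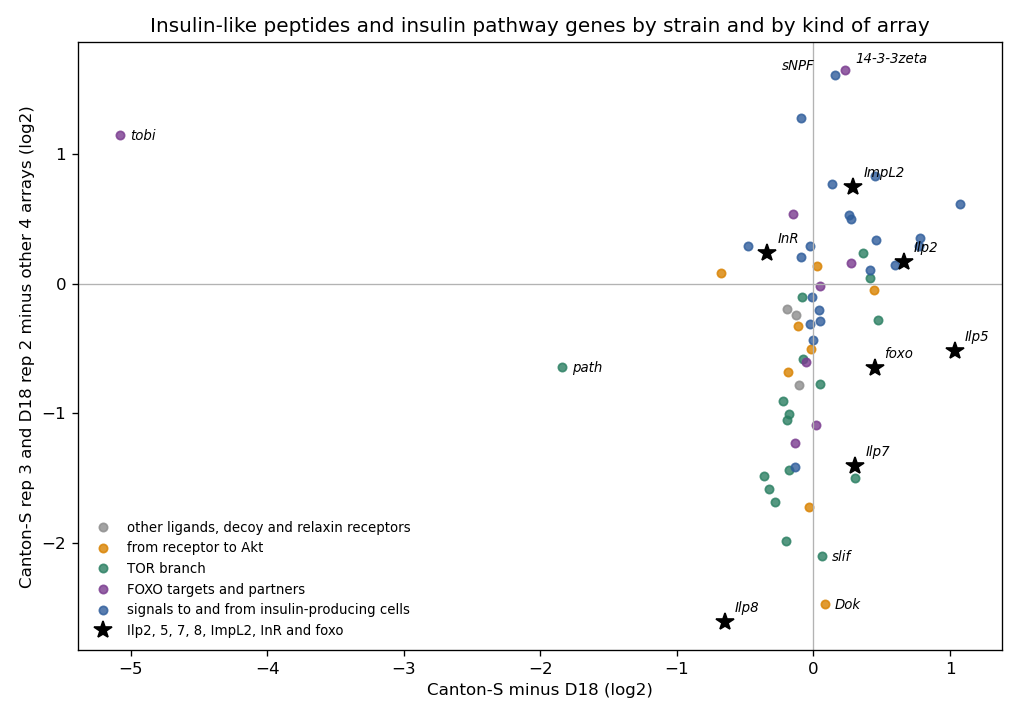
Each point is a gene, with the difference Canton-S minus D18 on the horizontal axis and the difference of Canton-S replicate 3 and D18 replicate 2 minus the other 4 arrays on the vertical axis, both on the log2 scale. Stars are the 7 measured genes of the list and coloured points the 57 pathway genes by group. The gene tobi lies far to the left at -5.08, and most genes of the Tor branch lie below 0 on the vertical axis, with Ilp8 lowest of all at -2.62.

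Patterns over the 6 arrays were compared by Pearson correlation with 13646 probe sets that name a single gene, as a description in which every point shares the 2 kinds of array. For Ilp8 the closest were CG7747 and Zcchc7, both at 0.998, and for Ilp7 Dis3 at 0.997 and Arpc1 at 0.995. As many as 1735 probe sets had a correlation above 0.95 with Ilp8 and 263 with Ilp7, so these patterns were common on the array. Far fewer resembled each of the other genes. For Ilp2, 5 probe sets exceeded 0.95, led by Obp99b (0.976) and CG13309 (0.974), and for Ilp5 9, led by Arc2 (0.973) and CG6126 (0.966). For ImpL2 42 exceeded it, led by CG12158 (0.994) and Obp83b (0.991). For InR 5 did, led by CG14024 (0.974) and rsh (0.969), and for foxo 25, led by CG14820 (0.987) and CG43693 (0.986). With 6 arrays and so many probe sets compared, correlations of this size also arise between unrelated genes. A relation between any of these genes and the gene they resembled was not tested.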

How the data were processed

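The authors deposited log2 signals, obtained by RMA with default parameters from scans of GeneChip Drosophila Genome 2.0 arrays. This method subtracts background, scales all arrays jointly and gives each probe set a single value, so a general shift between arrays can enter every difference. Values of 3 Canton-S and 3 D18 arrays were used as deposited, 183 control probe sets were left out, and precision is limited by the number of arrays, which the labels call biological repeats. The array annotation assigned genes to probe sets, with symbols updated by gene ID. Of those tested, 13647 name 1 gene. Gene positions are those of the Release 6 assembly. Names of genes in the lists were updated to current symbols, and a gene with several probe sets was given by the one with the highest mean.

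The strains were compared for 18769 probe sets with lmFit and eBayes in limma 3.58.1 (R 4.3.3), strain as the only factor, with Benjamini-Hochberg adjustment over all of them. Tables and plots used Python 3.11.15, numpy 2.4.6, pandas 2.3.3, scipy 1.17.1 and matplotlib 3.10.9. The fits with strain alone, with the array-kind block and with the interaction were tested on data simulated with independent noise. The fits with a replicate block were not tested in this way.

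The members, the gene lists and the 2 kinds of array were chosen with earlier results of these data known. The genes named were all measured members and, from each pathway list, every gene past the thresholds of the methods, up to 4 with the widest difference among those apart by kind of array, at least 2 in each list, and the 2 probe sets most correlated with each member whose arrays spanned over 1. Genes named outside this rule were chosen after their values were seen. The labels number the repeats, and by the methods both strains were extracted together in each repeat, so the replicate number pairs the arrays, and fits with it as a block are given beside the results whose calls it changes. Arrays of the same number correlated in their deviations from the strain means at 0.777, -0.93 and -0.861 for replicates 1, 2 and 3, and the arrays that stand apart carry different numbers. Alternatives were a replicate block, an array-kind block (Canton-S replicate 3 and D18 replicate 2), both together, leaving out those 2 arrays or each array in turn, quantile normalization, a common median, leaving out the dimmest 40% of probe sets, and an intensity trend in the variance. Functional enrichment, qRT-PCR and the assays of behaviour and cold were not analysed here.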

Additional observations from a re-analysis of the deposited data

How the results depend on the processing

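The strain differences of Ilp2 and Ilp5 passed the thresholds of the methods in 1 of the 14 alternatives, Ilp5 without D18 replicate 1. Their direction held in all 14, but most of these could not have turned it. The blocks, the dim filter and the intensity trend leave both estimates as they are. The strains were completely separated for both genes, so leaving arrays out could not turn the sign. Only quantile normalization (0.50 for Ilp2 and 0.79 for Ilp5) and a common median (0.50 and 0.87) could have. Leaving out each array in turn gave 0.42 to 0.80 for Ilp2, 0.69 to 1.42 for Ilp5, -0.60 to -0.058 for InR, 0.14 to 0.82 for foxo, -0.11 to 0.86 for Ilp7, -1.46 to 0.29 for Ilp8 and -0.043 to 0.59 for ImpL2, so that the last 3 changed sign. Without the 2 arrays that stand apart InR turned to 0.066. The number of member genes past the thresholds was 0, or 0 to 1 with an array left out. That of pathway genes was 1, 0 to 1 with an array left out, and 2 with the array-kind block. It was 3 with the replicate block and the array-kind block (tobi, path and CCHa2, with tobi at an adjusted p = 0.0300 from limma). The fit with both blocks has nearly as many terms as arrays, so calls from it are weakly based.

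Over all probe sets 239 passed the thresholds, 92 with the replicate block, 447 with the array-kind block, 497 with both, 514 without the 2 arrays, 121 with a common median and 130 to 297 with an array left out. With a common median 72.7% of them were higher in Canton-S, against 84.9%, and the median strain difference of all probe sets moved to -0.22. At an adjusted p under 0.05 there were 7 from limma, 0 with the replicate block or any array left out (373 and 499 to 1286 at an unadjusted p under 0.05), 95 with the array-kind block, 40 with both, 58 without the 2 arrays, 2 with quantile normalization, 1 with a common median, 11 without the dimmest 40% and 2 with the intensity trend.

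Between the kinds of array, a common median gave -1.87 for Ilp7, -3.08 for Ilp8, 0.28 for ImpL2, -0.23 for InR and -1.11 for foxo. Inside Canton-S InR differed by -0.37 and inside D18 by 0.84. The replicate block left every strain difference as it was and took the unadjusted p of Ilp2 to 0.126 and of Ilp5 to 0.085. Used alone, the replicate block changed no call of a member or of a pathway gene at the thresholds of the methods. Added to the array-kind block, it brought CCHa2 past them, with an unadjusted p from limma of 0.0153 before and 0.0047 after. The limit given above for the fit with both blocks applies to this call too. Ilp7 was among the dimmest 40% and has no value there. Nothing here measures low signals such as those of Ilp7, Lgr3 and Lgr4 on a scale free of compression.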
